A study of Mus musculus with 5 samples.

Results

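The 9 genes described here, Myc, Mycn, Max, Mxd1, Mxd3, Mxd4, Mxi1, Mnt and Mlx, encode the MYC network, a family of transcription factors that drive or oppose cell growth. They were taken by gene symbol from the array's annotation, which names 19057 genes, and they are read by 16 of its 45281 probes. The study hybridized RNA of mouse marrow erythroblasts, the last nucleated stages before the red cell, to 5 Illumina bead arrays. The genotype label reads Flvcr deleted on 2 arrays and wild type on 3, and both groups are C57BL/6J, from marrow and of the erythroblast cell type. Flvcr is the gene now called Flvcr1, whose protein exports heme from the cell, and the series title concerns heme and GATA1 in erythroid differentiation. The sources used here give neither what drives the deletion, nor how many cells it reaches, nor the ages of the mice. Nor do they state separate animals for the replicates, so the p-values rest on an array-to-array spread that may be technical.

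MYC binds DNA as a pair with MAX, at the E-box sequence CACGTG and its variants, and turns on genes of ribosome building, nucleotide and polyamine synthesis and the cell cycle. The MXD proteins (MXD1, MXD3, MXD4 and MXI1) and MNT pair with the same MAX, bind the same sites and recruit the SIN3 corepressor with its histone deacetylases, and MLX can pair with some of them or with the glucose-sensing MONDO proteins. In red cell precursors MYC is known to fall as cells mature, while MXD proteins are known to take its place on MAX in maturing cells of several lineages.

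Among the members measured, Myc was the only one that rose in the arrays labelled Flvcr-deleted, by 1.83-fold. Mxd3 fell by 4.21-fold, Mxd1 by 2.40-fold and Mxd4 by 1.30-fold. Each of these 4 calls rests on 1 probe, and the second measured probes of Mxd1 and Mxd4 did not pass. Max, Mxi1, Mnt and Mlx did not pass the test, and Mycn was not measured because its probe lay above the background floor on 1 array only. The values are log2 signals, a probe counted as measured where it lay above a floor of 6.83 on at least 2 arrays, and each gene is represented by its brightest measured probe. In the limma fit across 10076 genes, 4 of the 8 measured members were called at an adjusted p under 0.05, against a background of 39.3% of all genes. Of these 1 was higher, where 21.8% of all genes were, and 3 were lower, where 17.5% of all genes were. The shares are of a few genes only, and with a background this wide a call alone sets no member apart.

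**Figure D1:**
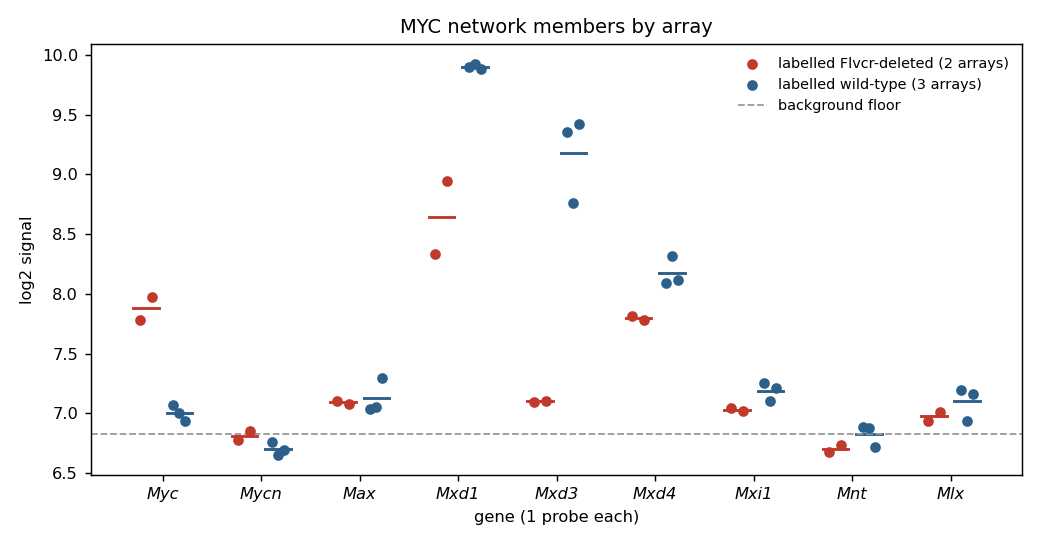
Log2 signal (vertical axis) of the brightest measured probe of each member, and of the single Mycn probe, on the 2 arrays labelled Flvcr-deleted (red) and the 3 labelled wild-type (blue). Points are arrays, short bars are group means and the dashed line is the background floor of 6.83. Myc is higher in both red points, Mxd1, Mxd3 and Mxd4 are lower, and the remaining members lie near the floor.

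Over all probes, the correlation between arrays was 0.989 to 0.992 within the groups and 0.948 to 0.954 across them. Flvcr1 itself was brighter where it is labelled as deleted, at 9.88 and 9.75 against 8.16, 8.32 and 8.25 by the only one of its probes above the floor. Where that probe lies in the gene is not known here, so it is no check of the labels, on which every direction below rests. Of 10 erythroblast markers, 8 were measured, all above the floor on all 5 arrays, with summed linear signals of 78757 to 82635 in the arrays labelled Flvcr-deleted and 101743 to 104370 in the others, and 6 of the 8 were lower. Markers of other blood cells were measured too. The summed signal of 14 measured neutrophil markers, of 15 listed, was 6418 to 10821 against 31667 to 36414, with 5 of them lower. That of 6 mast cell, basophil and eosinophil markers, of 8 listed, was 1056 to 1065 against 5605 to 8372, with 5 lower. Of 9 measured macrophage markers, of 11 listed, none passed in limma (1 at an unadjusted p under 0.05), with sums of 1602 to 2433 against 1875 to 3622. The B cell (2 of 4 measured lower), T and NK cell (1 of 2) and megakaryocyte markers (2 of 3) had sums of 431 to 446 against 617 to 818, of 303 to 485 against 777 to 1301 and of 432 to 490 against 1082 to 1147. No B cell marker was above the floor on all 5 arrays. In the T and NK cell list Nkg7 was lower (-1.80), whereas Cd3e differed the other way (0.24) and did not pass. All of these lists have lower summed signals in the arrays labelled Flvcr-deleted except that the macrophage ranges overlap. Over all genes tested 17.5% were called lower, and each of these counts rests on few markers. A linear sum weighs its brightest markers most. In the neutrophil list Mpo was the brightest on the wild-type arrays, and 9 markers did not pass. Mmp8, Siglec1, Pax5, Cd3d, Cd3g, Klrb1c, Pf4, Ppbp, Gp1bb, Ms4a2 and the erythroblast marker Epb42 were not above the floor on 2 arrays. These sums differ between the same arrays as every gene described below, and their part in the results was not tested. In RNA of a cell mixture, fewer cells of a type and less RNA per cell cannot be told apart.

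Myc encodes the activating partner of the network. Its measured probe, ILMN_2623526, read 7.78 and 7.98 on the Flvcr-deleted arrays and 7.07, 7.01 and 6.93 on the wild-type arrays. Both of the former lay above all 3 of the latter, and the wild-type signals were only a little above the floor. With group means of 7.88 ± 0.14 (SD, n = 2) and 7.003 ± 0.07 (SD, n = 3), Myc rose by 0.88 on the log2 scale (SE 0.11, limma, adjusted p = 2.36e-04). Among all genes tested it was the 630th largest rise of 10076. Because the signals appear to hold background, the fold understates the change of a dim gene, and with normexp background correction the log2 difference of Myc was 1.14. The second Myc probe lay below the floor on all 5 arrays, at means of 6.68 and 6.72, although it is annotated to the same transcript, so the rise rests on 1 probe. Mycn, the family member best known from neural and early blood progenitors, read 6.77 and 6.85 against 6.76, 6.65 and 6.69, at or around background in both groups.

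The MXD genes encode repressors that compete with MYC for MAX. Mxd3, known for its expression in cells that are still cycling, read 7.10 and 7.11 on the Flvcr-deleted arrays and 9.35, 8.76 and 9.42 on the wild-type arrays. The groups were far apart, with a log2 difference of -2.08 (SE 0.18, limma, adjusted p = 4.93e-05) between means of 7.10 ± 0.01 (SD, n = 2) and 9.18 ± 0.36 (SD, n = 3). It was the 27th largest fall of 10076 genes, and 31 genes (0.308%) were called lower by at least 4-fold. In linear terms this was 4.21-fold lower, toward a signal that stood only 0.27 log2 units above the floor.

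Mxd1, known to be induced as blood cells leave the cycle and also expressed in granulocytes, had brightest-probe signals of 8.33 and 8.95 on the Flvcr-deleted arrays and of 9.89, 9.93 and 9.88 on the wild-type arrays. The 3 wild-type arrays were almost equal (9.90 ± 0.02, SD, n = 3), whereas the 2 others differed from each other (8.64 ± 0.44, SD, n = 2), and both were lower. The log2 difference was -1.26 (SE 0.16, limma, adjusted p = 3.47e-04), and among all genes it was the 269th largest fall. Its second measured probe read 6.99 and 7.02 against 7.05, 7.39 and 7.51, a difference in the same direction of -0.31 (SE 0.14) that did not pass in the fit over all 17729 kept probes (limma, adjusted p = 0.124), and the third was below the floor on all 5 arrays. With the mean of both measured probes the difference was -0.78 and still passed (limma, adjusted p = 0.00109). Neutrophil markers differed between the same arrays. On the Flvcr-deleted arrays, in the order given for Mxd1, 8 of the 14 measured markers ran the same way as Mxd1, among them the late granule genes Ltf (6.98 and 8.38) and Camp (6.79 and 7.97) and the calprotectin subunit S100a9 (7.41 and 9.04). The other 6 ran the opposite way, among them the early granule genes Mpo (12.34 and 10.25) and Elane (10.40 and 8.34). These 6 include all 5 neutrophil markers that were called lower, whereas none of the 8 passed. With 2 arrays a marker can run only the same or the opposite way, so these counts by themselves tell little. On the wild-type arrays, where Mxd1 was almost equal, S100a9 read 9.56, 7.84 and 10.41 and Mpo 13.69, 14.13 and 13.56. The part of granulocyte RNA in the fall of Mxd1 was not tested.

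Mxd4, another repressor of the family, read 7.82 and 7.78 against 8.09, 8.32 and 8.11 by its brightest probe. The groups did not overlap, and the log2 difference was -0.37 (SE 0.11, limma, adjusted p = 0.0219). A second measured Mxd4 probe differed by 0.00 (SE 0.10, limma, adjusted p = 0.997), and the mean of both gave -0.19, which did not pass (limma, adjusted p = 0.139). The call was also lost when Flvcr-deleted replicate 1 (-0.39, adjusted p = 0.0847), Flvcr-deleted replicate 2 (-0.36, adjusted p = 0.112) or wild-type replicate 2 (-0.30, adjusted p = 0.0543) was left out of the limma fit.

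Mxi1, the fourth MXD protein, read 7.04 and 7.02 against 7.25, 7.10 and 7.21. The ranges did not touch, as for 26.8% of all genes in that direction, but the difference of -0.16 did not pass (95% interval -0.38 to 0.06, limma, adjusted p = 0.248). Groups that did not overlap were found for 4 measured members in the lower direction (Mxd1, Mxd3, Mxd4 and Mxi1) and for Myc in the higher direction, against 26.8% and 32.3% of all genes.

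Max, the partner that the MYC and MXD proteins share, read 7.10 and 7.08 against 7.04, 7.05 and 7.29. The difference of -0.04 was within the spread of the arrays (95% interval -0.29 to 0.22, limma, adjusted p = 0.850), an interval that includes a change of up to 0.29 on the log2 scale. Mnt, the most widely expressed of the MAX-binding repressors, read 6.67 and 6.74 against 6.89, 6.88 and 6.72, and was measured only through 2 of the wild-type arrays. It was not above the floor in the arrays labelled Flvcr-deleted and its difference was -0.12 (95% interval -0.35 to 0.11, limma, adjusted p = 0.392). Mlx, the MAX-like partner, read 6.94 and 7.01 against 7.20, 6.94 and 7.17 by its brightest probe, with overlapping groups (-0.13, 95% interval -0.38 to 0.13, limma, adjusted p = 0.438). Its other measured probe differed the opposite way (0.16, limma, adjusted p = 0.246), and neither passed. For these 3 genes the signals lay so close to the floor that a change in level could be compressed on this scale.

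**Figure D2:**
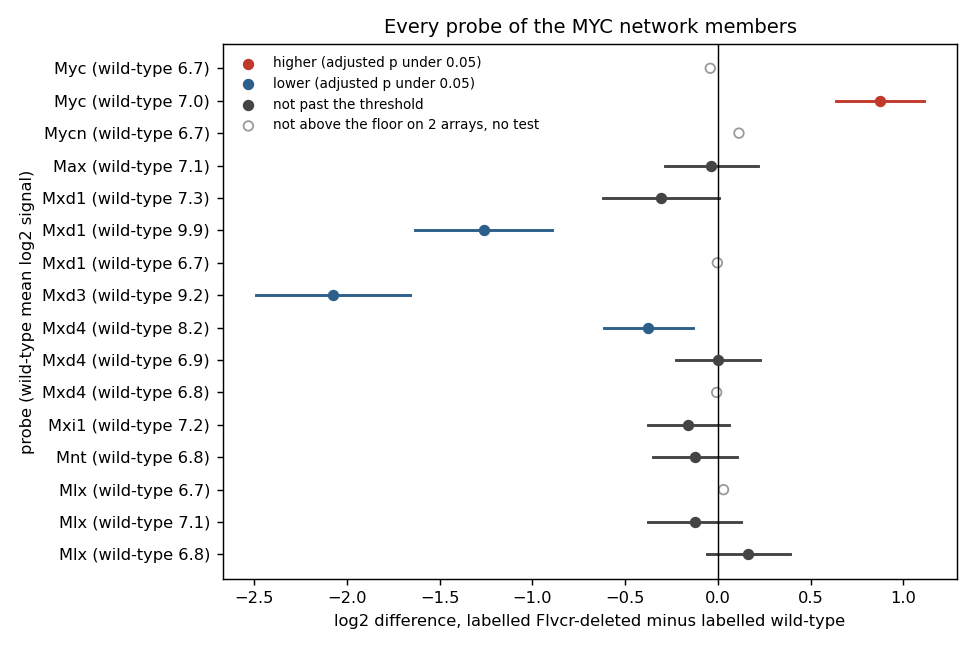
Log2 difference, labelled Flvcr-deleted minus labelled wild-type (horizontal axis), for each of the 16 member probes, with 95% intervals from the limma fit over all kept probes; open circles are the 5 probes without a test, and the wild-type mean log2 signal stands beside each symbol. Of the 11 kept probes 1 is higher (Myc), 3 are lower (Mxd1, Mxd3 and Mxd4) and 7 did not pass.

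Over probes rather than genes, 4 of the 11 kept member probes were called, where 35.3% of all kept probes were. For Mxd1, Mxd4 and Mlx, the 3 members with several kept probes, the dimmer probe did not pass, and for Mxd4 and Mlx it lay on the other side of 0. The called Mxd4 probe has no transcript in the annotation, whereas its other 2 probes, of which 1 was kept, are assigned to the Mxd4 transcript.

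**Figure D3:**
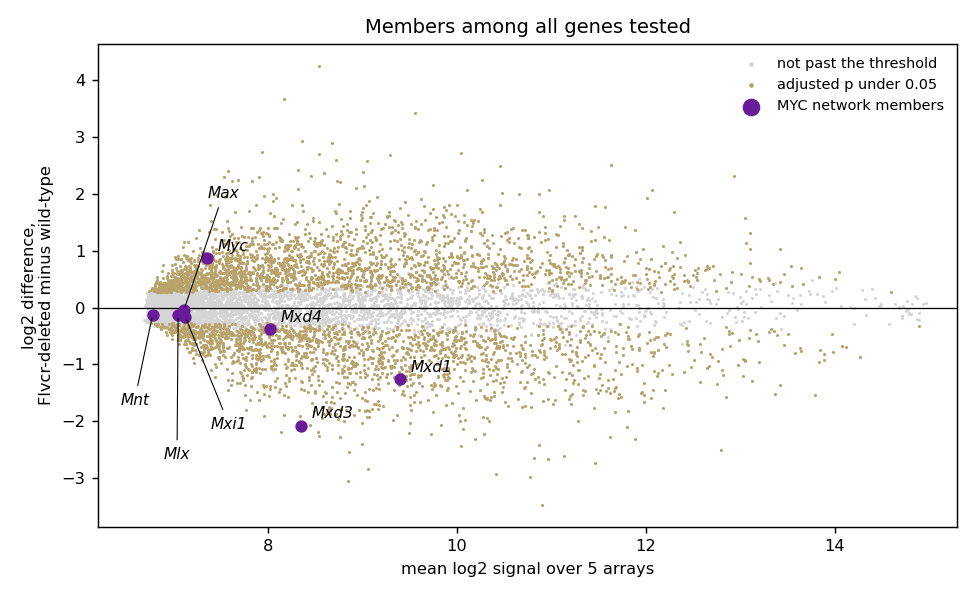
Log2 difference (vertical axis) against mean log2 signal over the 5 arrays (horizontal axis) for the 10076 genes tested, with the 8 measured members in purple. Mxd3 (-2.08) lies near the lower edge of the cloud, Mxd1 (-1.26) and Myc (0.88) inside the called genes, and Max, Mnt, Mxi1 and Mlx at the dim end around 0.

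The signal of Myc relative to each other member was followed within each array and set to 0 at the wild-type mean, since the levels of different probes cannot be set against each other. Against Mxd3 it stood at 2.86 and 3.04 log2 units in the arrays labelled Flvcr-deleted, where the wild-type arrays ran from -0.31 to 0.42. Against Mxd1 it stood at 2.35 and 1.93, with wild-type arrays between -0.05 and 0.07. The shift was less against Mxd4 (1.13 and 1.37), and against Max (0.80 and 1.02) it was close to that of Myc alone. These values restate the differences above within arrays and carry no separate test, and they concern transcripts and not the amounts of the proteins that pair with MAX.

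**Figure D4:**
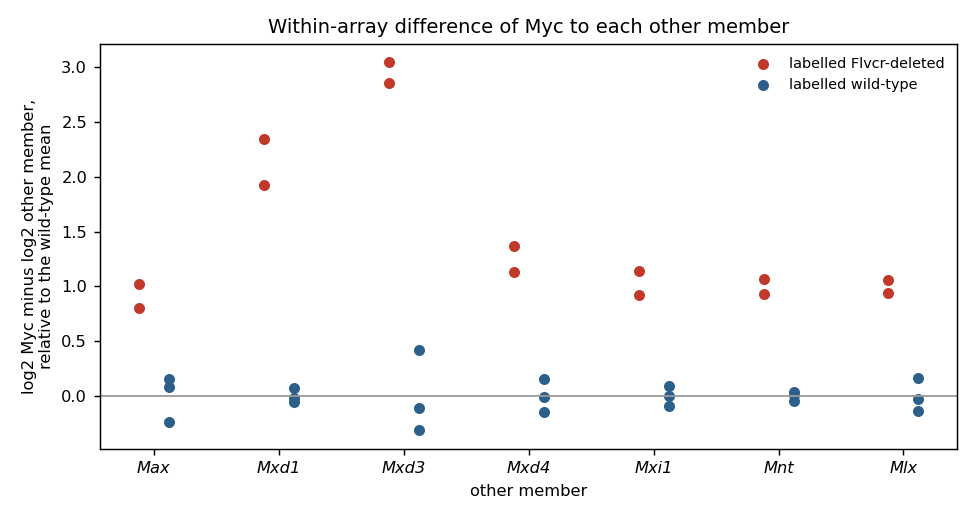
Log2 signal of Myc minus that of each other measured member on the same array, relative to the mean of the wild-type arrays (vertical axis), for the 2 arrays labelled Flvcr-deleted (red) and the 3 labelled wild-type (blue). The red points are highest against Mxd3 (2.86 and 3.04) and Mxd1 (2.35 and 1.93), and lie above all blue points for each member, Myc being part of each difference.

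The start regions of the members were read from a RefSeq promoter table (build GRCm38.p6, 250 bases before to 50 after each gene's start) to show which hold the site that the network itself binds. The table held 8 of the 9 members, all but Myc. The E-box CACGTG, a palindrome and so the same on both strands, was found in Max, Mxd4, Mnt and Mlx, 4 of 8 genes, against 8.09% of all 27025 genes of the table and 11.7% of the tested genes found in it. The windows around it are printed 5′ to 3′ on the gene's strand, with the E-box in capitals:
Max, chr12:76962234-76962263, minus strand: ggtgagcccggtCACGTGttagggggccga
Mxd4, chr5:34187912-34187941, minus strand: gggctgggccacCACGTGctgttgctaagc
Mnt, chr11:74830789-74830818, plus strand: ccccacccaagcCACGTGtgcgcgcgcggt
Mlx, chr11:101087238-101087267, plus strand: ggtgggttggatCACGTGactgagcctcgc
In Max the site begins 3 bases before the start, in Mlx 40, in Mnt 123 and in Mxd4 219 bases before it. Of these 4 genes only Mxd4 was called, by 1 probe.

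The 2 members that fell most, Mxd3 and Mxd1, have no CACGTG in this window. None of the 8 members, Mxd3 and Mxd1 included, has the letters AGATAA, a form of the site bound by GATA1, on either strand. These letters are found in 12.7% of all genes of the table and 8.33% of the tested genes found in it. No other form of the site was searched, and the shorter GATA does occur in the Mxd1 window below. The windows of Mxd3 and Mxd1 are printed whole because these genes carry the largest differences, with the 50 bases from the start onward in capitals:
Mxd3, chr13:55329682-55329981, minus strand: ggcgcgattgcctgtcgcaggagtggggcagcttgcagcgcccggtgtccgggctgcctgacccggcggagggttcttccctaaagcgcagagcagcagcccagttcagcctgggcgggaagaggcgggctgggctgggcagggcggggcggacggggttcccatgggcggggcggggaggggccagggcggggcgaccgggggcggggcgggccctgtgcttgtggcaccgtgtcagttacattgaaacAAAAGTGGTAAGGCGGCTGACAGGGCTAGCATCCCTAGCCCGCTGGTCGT
Mxd1, chr6:86669110-86669409, minus strand: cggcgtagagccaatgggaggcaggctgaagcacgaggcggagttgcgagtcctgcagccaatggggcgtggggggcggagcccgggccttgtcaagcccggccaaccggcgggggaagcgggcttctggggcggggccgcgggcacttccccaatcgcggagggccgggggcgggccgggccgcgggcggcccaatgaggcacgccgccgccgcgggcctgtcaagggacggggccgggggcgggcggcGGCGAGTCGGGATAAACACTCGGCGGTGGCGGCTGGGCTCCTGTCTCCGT
That CACGTG and AGATAA are absent from the windows says nothing about binding by MYC, MAX or GATA1.

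Genes that MYC is known to induce were mostly higher where Myc was higher. From a list of 40, 32 were measured. Of these 27 rose, 3 fell and 2 missed the threshold, and the median log2 difference was 1.13, beside 21.8% higher, 17.5% lower and a median of 0.01 over all genes tested. The list was chosen with earlier results of these data known, so the contrast is a description and no test of MYC activity. Srm, spermidine synthase, read 12.002 and 11.89 against 9.34, 9.54 and 9.51, a log2 difference of 2.48 (SE 0.11, limma, adjusted p = 3.22e-06). Ccnd2, the G1 cyclin D2, differed by 2.90 (SE 0.12), or by 1.88 with the mean of its probes. Bzw2, a regulator of translation start, rose by 2.07 (SE 0.11), and Nop58, of the particles that methylate ribosomal RNA, by 2.00 (SE 0.18). Ncl, which encodes the nucleolar protein nucleolin, read 10.00 and 10.43 against 9.09, 9.04 and 8.90 and rose by 1.21 (SE 0.14, limma, adjusted p = 1.91e-04). In each of these genes both arrays labelled Flvcr-deleted lay above all 3 wild-type arrays, as for 32.3% of all genes. Srm, Ccnd2, Bzw2 and Nop58 are the largest called rises of the list, so this separation follows largely from the choice.

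The 3 listed targets that fell were Odc1, Tfrc and E2f1. Odc1, ornithine decarboxylase, the enzyme just before spermidine synthase in polyamine synthesis and a classical MYC target, read 13.13 and 12.97 against 13.62, 13.48 and 13.34. It was lower by 0.43 on the log2 scale (difference -0.43, SE 0.12, limma, adjusted p = 0.0166), and the call was lost without Flvcr-deleted replicate 2 (adjusted p = 0.129) or wild-type replicate 1 (adjusted p = 0.0590). Tfrc, the transferrin receptor and an erythroid gene, differed by -0.76 (SE 0.11), and E2f1, a driver of S phase, by -1.39 (SE 0.10, limma, adjusted p = 1.79e-05). The 2 targets that did not pass, Ubtf (-0.16) and Eif4e (0.08), were named after their values were seen.

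E-boxes were found in the start windows of 12 of the 34 induced targets in the promoter table (35.3%). Over all tested genes found in the table, the letters were in 16.5% of 1838 genes called higher, 11.1% of 1424 called lower and 10.0% of 4958 that did not pass. These shares are a description, and base composition was not matched between the sets. Cdk4, the G1 kinase partner of the D cyclins, has the most of these sites among the listed targets, for which reason it is shown, although it was chosen after its values were seen. It read 10.996 and 10.84 against 10.05, 10.02 and 10.40 (difference 0.76, SE 0.13, limma, adjusted p = 0.00194). Its 4 sites on the plus strand and that of Bzw2 on the minus strand are:
Cdk4, chr10:127063351-127063380: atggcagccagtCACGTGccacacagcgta
Cdk4, chr10:127063405-127063434: aagtcaaggggtCACGTGggatagcaacag
Cdk4, chr10:127063425-127063454: atagcaacaggtCACGTGgccgtcagggcc
Cdk4, chr10:127063512-127063541: aagggtgaagatCACGTGtccagaacgtcc
Bzw2, chr12:36156899-36156928: gacttctgtgggCACGTGcggaggcattgg

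Of 14 listed genes that MYC is known to repress 11 were measured, and 2 were higher and 2 lower while 7 missed the threshold (median -0.03). These shares, 18.2% in each direction, are near those of all genes tested (21.8% higher and 17.5% lower). Cdkn1a, the cell cycle inhibitor p21, which MYC represses and p53 induces, read 10.42 and 9.82 against 7.02, 7.21 and 7.32, a rise of 2.94 (SE 0.17, limma, adjusted p = 1.04e-05), or 1.79 with the mean of its probes. Klf6, a zinc finger factor, rose by 0.88 (SE 0.11). Cdkn1b, the inhibitor p27, fell by 0.91 on the log2 scale (difference -0.91, SE 0.11) and Btg1, an antiproliferative gene, differed by -0.74 (SE 0.09). Cdkn1a and Cdkn1b, which inhibit the same kinases, differed in opposite directions on the same arrays.

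**Figure D5:**
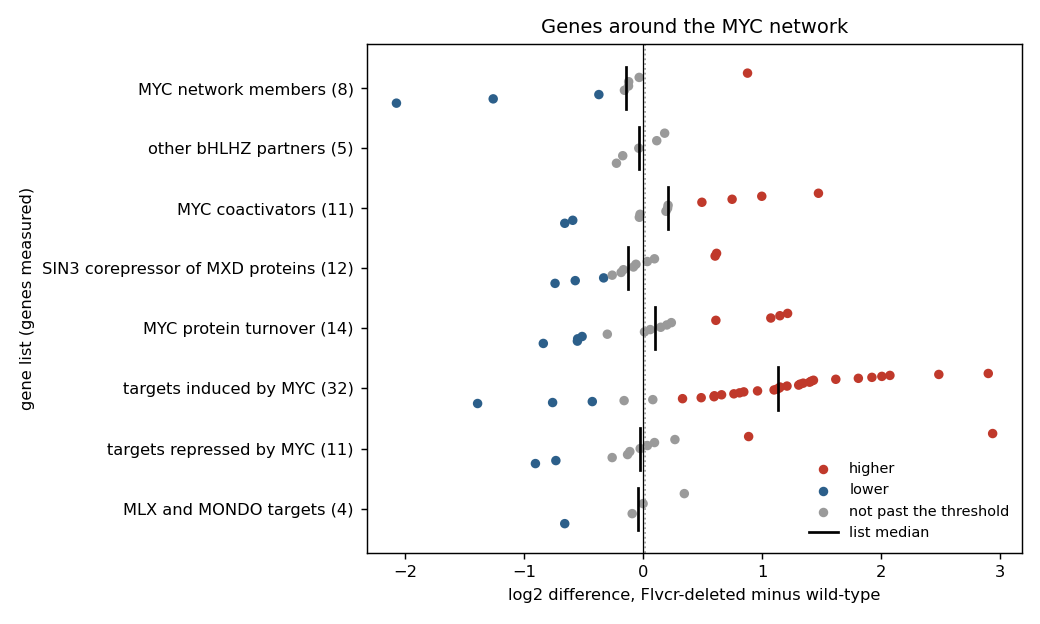
Log2 difference, labelled Flvcr-deleted minus labelled wild-type (horizontal axis), of each measured gene in the lists around the MYC network. Points are genes, colored by the limma call at an adjusted p under 0.05, black bars are list medians and the dotted line is the median of all genes tested. The targets induced by MYC lie mostly to the right (median 1.13), and the medians of the other lists lie between -0.14 and 0.20. The lists were chosen with earlier results of these data known.

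Of 12 coactivators 11 were measured, with 4 higher, 2 lower and 5 not past the threshold (median 0.20). The shares were 36.4% higher and 18.2% lower, beside 21.8% and 17.5% of all genes tested, on few genes. The paired helicases Ruvbl2 (1.47, SE 0.11) and Ruvbl1 (0.75, SE 0.11), subunits of the TIP60 and INO80 complexes, the histone acetyltransferase Kat2a (0.99, SE 0.10) and Wdr5 (0.49, SE 0.10), which binds MYC directly, rose. Ccnt1, the cyclin of the elongation kinase that MYC recruits, was lower (-0.66, SE 0.12), and Ep400 of the TIP60 complex was lower (-0.59, SE 0.19, limma, adjusted p = 0.0369). Ep400 did not pass without Flvcr-deleted replicate 1 (-0.36, adjusted p = 0.272), wild-type replicate 1 (adjusted p = 0.101) or wild-type replicate 2 (adjusted p = 0.0833), nor without a filter on dim probes (adjusted p = 0.0782).

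The SIN3 complex, through which MXD proteins and MNT repress, had 12 of 14 listed genes measured, with 2 higher, 3 lower and 7 not past the threshold (median -0.13). With 41.7% of them called, beside 39.3% of all genes tested, the list held about the background share of calls. Its scaffold Sin3a read 9.95 and 10.07 against 10.41, 10.74 and 10.58 and was lower (-0.57, SE 0.12, limma, adjusted p = 0.00463), as was the histone-binding Rbbp4 (-0.74, SE 0.10). Suds3, a SIN3 subunit, differed by -0.33 (SE 0.10, limma, adjusted p = 0.0264), a call lost in 7 of 12 alternatives. The deacetylase Hdac2 (0.60, SE 0.12) and Brms1 (0.62, SE 0.10), another SIN3 subunit, rose. Sin3b (-0.17, adjusted p = 0.343) did not pass.

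Of 15 listed genes that set the stability of the MYC protein 14 were measured, and 4 were higher, 4 lower and 6 without a call (median 0.10). This is 28.6% in each direction, beside 21.8% higher and 17.5% lower of all genes tested, on few genes. Usp36, a nucleolar deubiquitinase that stabilizes MYC, read 8.03 and 8.30 against 7.08, 7.07 and 6.71 and rose by 1.21 (SE 0.14), or 0.64 with the mean of its probes. The ubiquitin ligases Trim32 (1.15, SE 0.11, or 0.63 with the mean of its probes) and Fbxw7 (0.61, SE 0.13), which mark MYC for destruction, rose too, as did Set, an inhibitor of the phosphatase PP2A (1.07, SE 0.11). Fbxw7 did not pass without Flvcr-deleted replicate 2 (adjusted p = 0.0632). The mitotic kinases Aurka (-0.84, SE 0.09) and Plk1 (-0.55, SE 0.12) fell, as did the kinase Gsk3b (-0.51, SE 0.14), which primes MYC for FBXW7, though Gsk3b did not pass without Flvcr-deleted replicate 2 (adjusted p = 0.0902). Skp2, a ligase subunit that is also a coactivator of MYC, was not above the floor in the arrays labelled Flvcr-deleted and was at least 1.29-fold lower there (limma, adjusted p = 0.00466).

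The remaining partners of the family showed no call. Of 6 other genes for proteins of the same DNA-binding class, 5 were measured and none passed, beside 39.3% of all genes tested. Their differences ran from -0.23 (Usf2) to 0.18 (Mlxip, the MONDO protein MONDOA). At an unadjusted p under 0.05 the limma count was also 0. Mlxipl lay above the floor on no Flvcr-deleted array (mean 6.69) and Mga on 1, so a change in them could be compressed. Of 6 targets of MLX and MONDO proteins 4 were measured, and 1 passed (25%, beside 39.3% of all genes tested). It was Txnip, an inhibitor of glucose uptake and the best known MONDO target, which read 10.28 and 9.89 against 10.60, 10.62 and 11.02 and was lower (-0.66, SE 0.16, limma, adjusted p = 0.0107). Txnip did not pass without Flvcr-deleted replicate 2 (-0.47, adjusted p = 0.0922), and Arrdc4, its usual companion, differed by 0.00.

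Across the 5 arrays, the genes whose pattern was most like that of Myc, by the root mean square difference of log2 signals centred on each gene's mean, were Obi1 (0.02), a ubiquitin ligase of replication origins, Radx (0.03), a single-strand DNA-binding protein, and Mrpl23 (0.03), of the mitochondrial ribosome. The log2 differences of Obi1 and Mrpl23 were 0.85 and 0.93. Radx was not above the floor on any wild-type array and was at least 1.77-fold higher on the Flvcr-deleted arrays (limma, adjusted p = 1.72e-04). Those most like Mxd3 were Metap2 (0.12), a methionine aminopeptidase, Ank (0.17), a pyrophosphate and ATP transporter, and Cdkn2d (0.18), the CDK4 and CDK6 inhibitor p19. They differed by -2.03, -2.23 and -2.40, in a pattern that the difference between the 2 groups largely sets. For Metap2 a dimmer probe differed by 0.07 (limma, adjusted p = 0.657), and the mean of its probes was at -0.57.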

How the data were processed

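Biotinylated cRNA from 5 samples was hybridized to Illumina bead arrays, per the labels' protocols. The signals are the values the authors deposited, read here as log2. Their log base, software and normalization are not stated in these sources. Over all arrays together the values ran from 6.35 to 15.06. The arrays had close distributions, with medians of 6.756 to 6.757 and 35.9% to 36.0% of probes above the background floor. A second table was not used here: its 10 columns carry names that cannot be tied to samples.

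A background floor of 6.83 was set 1.64 spreads (of 0.0824, from the values below the peak) above the most common signal, 6.70. Probes above it on at least 2 arrays (17729 of 45281) were kept. The brightest kept probe of each of 10076 genes with a unique symbol was fitted with limma 3.58.1 in R 4.3.3, genotype as the only term, two-sided. Residual and prior degrees of freedom were 3 and 5.64. P-values were Benjamini-Hochberg adjusted over all genes and called under 0.05. Single probes were taken from the same fit over all kept probes. A bound sets the brighter group's mean against the floor, or the dimmer signal where higher. The fit was also run on simulated data with 200 changed genes, far fewer than were called here, and its outcome is not used.

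The members and gene lists were chosen with earlier results of these data known. Named were the members, up to 4 called genes per list and direction of largest difference, Flvcr1, Odc1, Ncl, Cdkn1a, Ccnd2, Txnip, and the 3 genes most like Myc and most like the member of largest fall. Of 47 such genes tested, 19 had several kept probes, and in 3 (Metap2, Mlx and Mxd4) these differed in sign. Listed genes without a unique probe are not analysed here. Alternatives were normexp correction (offset 50), the floor on all 5 arrays, no floor, the mean of a gene's probes, every kept probe, an intensity trend with a robust prior, a replicate block and leaving out each array.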

Additional observations from a re-analysis of the deposited data

How the results depend on the processing

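Under 12 alternatives, the calls and directions of Myc, Mxd1 and Mxd3 were kept in each, and none of Max, Mxi1, Mnt and Mlx passed in any (Mnt could not be fitted with the floor on all 5 arrays). For Myc, Mxd1 and Mxd3 the floor on all 5 arrays, no floor, every kept probe and the intensity trend refit the same probe values. Such fits could change a p-value but not a direction. For Myc and Mxd3, with 1 kept probe each, this held for the mean of probes too. The replicate block gave Myc the difference found without wild-type replicate 3 (0.84). The Mxd4 call was lost with the mean of its probes (-0.19, adjusted p = 0.139) and without either Flvcr-deleted array or wild-type replicate 2, with leave-one-out differences from -0.42 to -0.30. With every kept probe as a feature 3315 were higher and 2949 lower, against 2199 and 1763 genes, because more features were tested. Leaving out each array gave 1 to 2 lower MYC coactivators and 0 to 1 higher and 0 to 1 lower MLX and MONDO targets; without a filter 1 coactivator was lower. The cause of these moves was not tested. With the replicate block, 1 MLX and MONDO target was higher, Mxd4 was at -0.40, and of the named genes Suds3 lost its call (-0.30, adjusted p = 0.0592). Replicate numbers are shared by 2 pairs, whose deviations from group means correlated at -0.03 and 0.10, so they were not treated as pairs. Of 39 other named genes, all called, 33 kept their call under every alternative that could be fitted, 6 lost it in at least 1, and 0 reversed. Most of the 39 were named because they were called with large differences, so these counts do not speak for other called genes. Arrays left out from the Flvcr-deleted group leave 1, assumed to vary like the others. Signals near the floor limit Myc, Max, Mxi1, Mnt and Mlx.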
